A study of Rattus norvegicus with 30 samples.

Results

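This account describes what changed in rat hepatocyte cultures that received only vehicle, between 24 and 48 h of dosing. Its members are 10 of the series' 30 arrays: 5 vehicle wells harvested at 24 h and 5 harvested at 48 h. They were chosen by their labels, as the arrays titled 1% DMSO with a time entry of 24 or 48 h. One of the 24 h arrays (replicate 2) carries a title that reads 2 h, whereas its time entry reads 24 hours, and it was counted at 24 h.

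All cultures were started from cryopreserved hepatocytes of male Sprague Dawley rats. The cells were plated on collagen in 6-well plates, covered with a Matrigel overlay, and dosed on day 3 of culture. The remaining 20 arrays came from wells given chlorpromazine HCl, a phenothiazine antipsychotic, at 0.8 or 20 µM and harvested at 24 or 48 h, 5 wells for each dose and time. The titles of the treated samples do not give their DMSO content. Each array held RNA of 1 well. The 5 wells of a group are described as independent cultures. No label ties them to different animals, and the tests therefore weigh a change only against the variation from well to well. No array of cultures before dosing, and none without DMSO, was analysed here, so the comparison joins 1 further day in culture with 1 further day in 1% DMSO.

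The adult hepatocyte makes most plasma proteins, clears drugs through cytochrome P450 and conjugating enzymes, makes bile acids from cholesterol, and both burns and synthesises fatty acids. Several of these functions depend on signals that isolated cells lose, among them the pulsatile growth hormone that sets the male pattern of liver P450 enzymes in the rat. Cultured hepatocytes are known to lose part of their specialised expression, and a collagen and Matrigel sandwich is used to slow that loss. Preparations of hepatocytes also carry some other liver cells, such as Kupffer cells, the resident macrophages of the liver.

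Signals were linear MAS5 values, each array scaled to a trimmed mean of 1500, and were compared as log2 of the signal after a floor of 16. Of the probe sets that named a single gene and passed a filter on low signal, the brightest was kept for each gene, which gave 11503 genes. A gene was called changed at an adjusted p under 0.05 in limma, with Benjamini-Hochberg adjustment over all 11503 genes. Changes are given as log2 of 48 h minus 24 h with their standard error (SE), from 5 arrays at each time.

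One 24 h array stood apart from its group. On the first principal component of the 10 vehicle arrays, which held 18.5% of their variance, the other 24 h arrays lay between -27.6 and -14.6 and the 48 h arrays at 12.8 or above. Vehicle 24 h replicate 5 lay at 1.27. Over all tested genes its mean correlation was 0.9669 with the 48 h arrays and 0.9661 with the other 24 h arrays. For each array, a position was computed over 467 genes that separated the times without this replicate, with 0 for the mean of the other 24 h arrays and 1 for the mean of the 48 h arrays. Replicate 5 had a median position of 0.403 (quartiles 0.175 and 0.653). The other 24 h arrays ranged from -0.0213 to 0.0203 and the 48 h arrays from 0.968 to 1.07, as the choice of genes and the scale set them; the distance of replicate 5 from its group on this scale is therefore a description, with no test. The array whose title reads 2 h lay at -0.0213, beside the other 24 h arrays. Among the treated arrays at 24 h, 0.8 µM replicate 1 lay at 0.385, and the remaining arrays of that group between 0.0108 and 0.159. The array numbers in the titles run through the 6 groups in the same order 5 times, so place within such a run and time cannot be told apart. Counts over all genes, and those of part of the lists, are also given without vehicle 24 h replicate 5. Of 37 glycolysis and hypoxia response genes, 3 were higher and 3 lower at 48 h (16.2% changed, against 13.2% of all genes). Without replicate 5, 3 were higher and 10 lower.

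**Figure D1:**
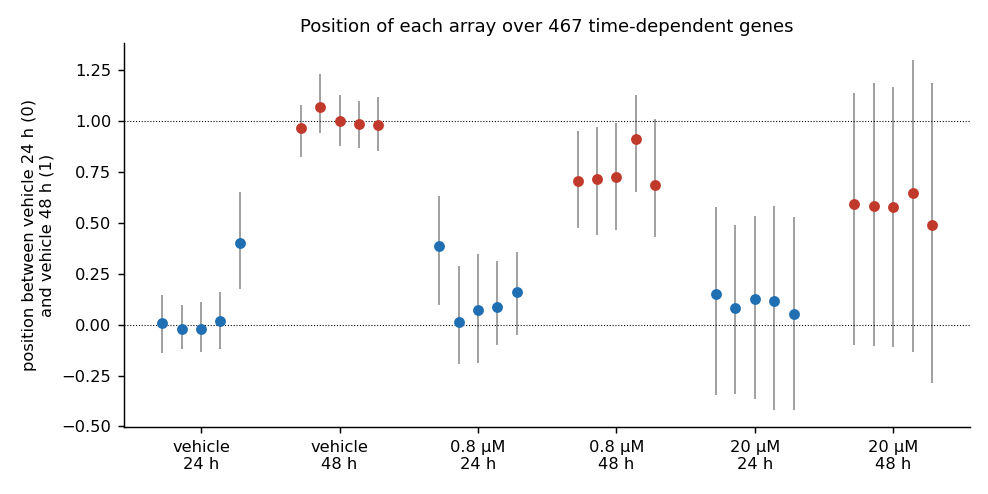
Position of each of the 30 arrays between the vehicle 24 h mean (0) and the vehicle 48 h mean (1), over 467 genes that separated the vehicle times without vehicle 24 h replicate 5. Points are medians over genes, bars run from the lower to the upper quartile, blue marks 24 h and red 48 h; vehicle 24 h replicate 5 lies at 0.403, and 0.8 µM 24 h replicate 1 at 0.385.

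Between 24 and 48 h, 1516 of the 11503 genes changed (13.2%). This share is the background for the counts in all gene lists. Of the 1516 genes, 745 were higher at 48 h (6.48%) and 771 were lower (6.7%). The balance depended on scaling: 807 were higher and 599 lower with arrays centred on their medians. With quantile normalization 796 were higher and 820 lower. Most of the changes were small: 66 genes (0.574%) changed at least 2-fold, 30 of them higher and 36 lower. The 5 arrays of one time lay entirely above those of the other for 1030 genes (8.95%), with 48 h above for 508 (4.42%) and below for 522 (4.54%). Among all kept probe sets, 1583 of 15676 that named 1 gene changed (10.1%), 52 of 360 that named several (14.4%), and 260 of 5190 that the annotation table does not list (5.01%). Without vehicle 24 h replicate 5, 1685 genes changed, 824 higher and 861 lower, and 86 changed at least 2-fold. The 2 sets shared 1382 genes, all in the same direction. At the largest sizes the falls were the greater: 5 named genes fell more than 4-fold, and Cd36 was the 1 named gene that rose by as much.

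**Figure D2:**
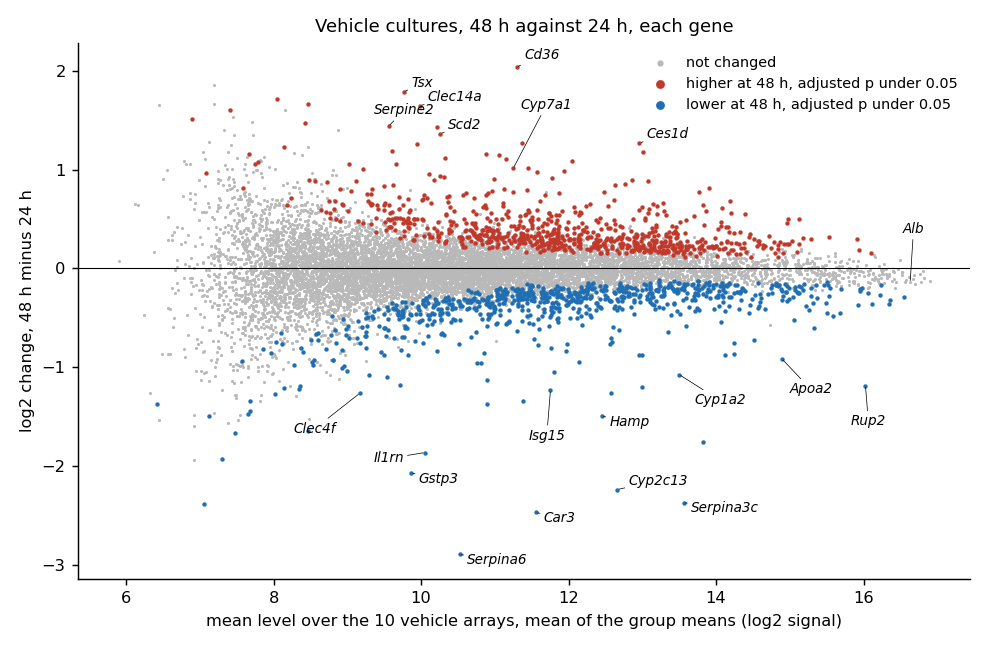
Change of each of the 11503 genes (vertical axis, log2 of 48 h minus 24 h) against its level (horizontal axis, log2 signal, mean of both group means). Red points are the 745 genes higher at 48 h, blue points the 771 lower, and grey points the genes that were not called; Cd36 lies highest among the labelled genes and Serpina6 lowest.

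Of the genes named here Serpina6 had the largest fall. It encodes corticosteroid-binding globulin, the plasma carrier of glucocorticoids. Its signals were 4356, 4868, 4691, 4817 and 2168 at 24 h, replicates 1 to 5, and 620.4, 415.3, 440.0, 567.7 and 722.7 at 48 h. All 48 h arrays lay below all 24 h arrays, and replicate 5 was the lowest of the 24 h arrays. Serpina6 fell 7.41-fold (log2 -2.89, SE 0.25, adjusted p = 1.2e-09). Serpina3c, a rat member of the antichymotrypsin family, measured 26110, 31470, 30400, 31980 and 19380 at 24 h and 5561, 3194, 6055, 6168 and 6428 at 48 h. It fell 5.15-fold with no overlap (log2 -2.37, SE 0.18, adjusted p = 8.49e-11). Serpina3l, of the same family, fell by 1.76 on the log2 scale (SE 0.15). Members of this family are close in sequence, so signal may be shared between their probe sets. In contrast, Serpina7, the thyroxine-binding globulin, rose by 0.79 (SE 0.22), from 326.9 to 561.1 at 24 h to 655.1 to 804.9 at 48 h.

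Acute phase proteins are plasma proteins that hepatocytes make more or less of in inflammation, under interleukin-6 and interleukin-1. Of 25 tested, 14 fell and 3 rose, and their median change was -0.28 against -0.02 for all genes. Without vehicle 24 h replicate 5, 14 fell and 2 rose. Hamp encodes hepcidin, the hormone that limits iron export into plasma. Its signals were 8759, 11970, 14200, 11930 and 4132 at 24 h and 3765, 2675, 3511, 3390 and 3482 at 48 h. Replicate 5 at 24 h lay just above the 48 h arrays, far below its own group. Hamp fell 2.81-fold (log2 -1.49, SE 0.25, adjusted p = 7.32e-05). Il1rn, the interleukin-1 receptor antagonist, ranged from 1210 to 2391 at 24 h. At 48 h it measured 824.1, 119.2, 633.9, 951.0 and 905.3, with replicate 2 well below the others. Its change was -1.86 (SE 0.35). Saa3, a serum amyloid A protein, fell from between 2527 and 3380 to between 982.4 and 1544 (log2 -1.37, SE 0.16). Socs3, which damps interleukin-6 signalling, was called lower (log2 -0.70, SE 0.21) with overlapping groups, and lost the call without 24 h replicate 3, 48 h replicate 3 or 48 h replicate 5 (adjusted p up to 0.116).

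Some abundant acute phase transcripts moved little. Haptoglobin (Hp) changed by -0.11 (SE 0.10, adjusted p = 0.572) and orosomucoid (Orm1) by -0.09 (SE 0.11, adjusted p = 0.687), neither past the threshold. Alpha-2-macroglobulin (A2m) fell by 0.32 and fibrinogen beta (Fgb) by 0.29; each call was lost without 24 h replicate 3 or 4 or 48 h replicate 1 or 2 (adjusted p up to 0.102 and 0.0965), and the second probe set of Fgb gave 0.40, not called. Crp, C-reactive protein, went the other way. It measured 15910, 11570, 13240, 12670 and 22680 at 24 h and 22600, 24260, 22440, 24640 and 24660 at 48 h. It rose 1.61-fold (adjusted p = 0.00104), and replicate 5 at 24 h lay within the range of the 48 h arrays.

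Complement factors, which opsonise and lyse microbes, split: 7 of 16 tested fell and 4 rose (68.8% changed, against 13.2% of all genes). C3, the central component, fell from between 52590 and 58050 to between 37320 and 41580 (log2 -0.45, SE 0.05). The mannose-binding lectin Mbl2 rose by 0.56 (SE 0.09) and C5 by 0.30 (SE 0.07). Of 16 coagulation factors and their inhibitors, 6 fell and 1 rose (43.8% changed), with a median of -0.10. Antithrombin (Serpinc1) fell from between 38600 and 43680 to between 26860 and 29880 (log2 -0.52, SE 0.05), and plasminogen (Plg) fell by 0.42 (SE 0.09). Fetuin-B (Fetub) fell by 0.48 (SE 0.05). Albumin (Alb) changed by -0.14 (SE 0.13, adjusted p = 0.586), transthyretin (Ttr) by -0.09 (SE 0.11) and Apoa1 by -0.03 (SE 0.10), none of them called. Rup2, urinary protein 2, was among the brightest transcripts at 24 h, between 70320 and 121200. It lay between 32560 and 51450 at 48 h, a fall of 1.19 on the log2 scale (SE 0.15). The 3 other kept probe sets of Rup2 gave -1.85 to 0.20, and 2 of them were called lower.

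**Figure D3:**
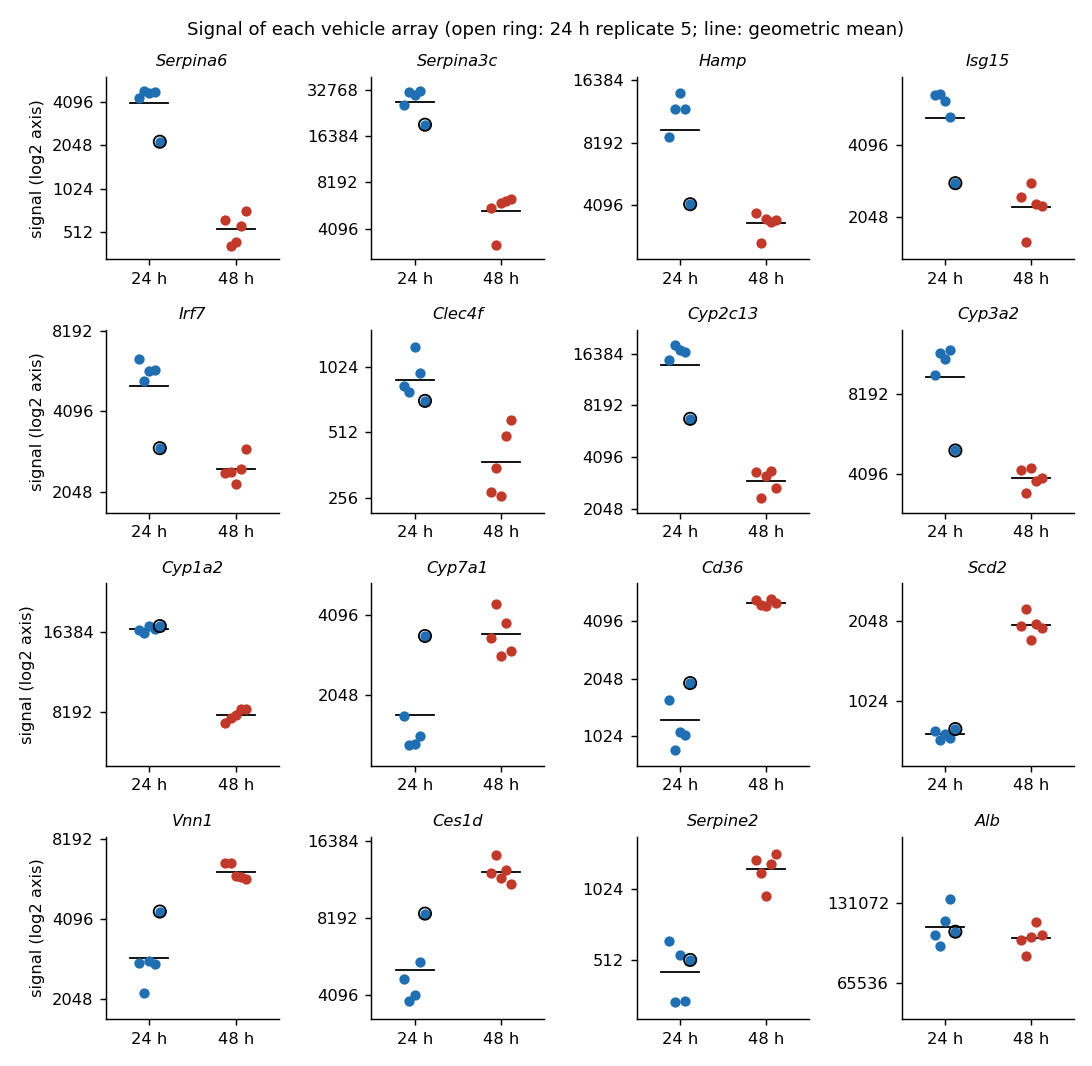
Signal of 16 genes on each vehicle array (vertical axes, signal on a log2 axis that differs between panels) at 24 h (blue) and 48 h (red). Lines are geometric means of 5 arrays and the ringed point is 24 h replicate 5, which lies nearer the 48 h arrays for Hamp, Isg15, Irf7, Cyp3a2 and Cyp7a1 but with its own group for Cyp1a2 and Scd2.

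Many interferon-stimulated genes were lower at 48 h. Interferons turn such genes on, many of them through a promoter sequence called the interferon-stimulated response element. Of 33 tested, 18 were lower at 48 h and 1 was higher (57.6% changed, against 13.2% of all genes), and the median change was -0.49. Without vehicle 24 h replicate 5, 21 were lower and 1 higher. The mean log2 signal of the list was 11.52, 11.26, 11.32, 11.27 and 11.02 on the 24 h arrays and 10.86, 10.75, 10.90, 10.73 and 10.75 on the 48 h arrays. The groups did not overlap on this mean, and replicate 5 was again the lowest 24 h array.

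The promoters of 4 of these genes that fell are printed here because their response element can be read directly. Each runs from 250 bases before the annotated start to 50 after it, on the gene's strand, from RefSeq on the GRCr8 assembly. The arrays' own annotation was not tied to that assembly. Capitals mark every match to GAAANNGAAA on either strand, N being any base. In Oas1a, 2 matches overlap.
Irf7 (chr1:205799974-205800273, minus strand, first match base at -69): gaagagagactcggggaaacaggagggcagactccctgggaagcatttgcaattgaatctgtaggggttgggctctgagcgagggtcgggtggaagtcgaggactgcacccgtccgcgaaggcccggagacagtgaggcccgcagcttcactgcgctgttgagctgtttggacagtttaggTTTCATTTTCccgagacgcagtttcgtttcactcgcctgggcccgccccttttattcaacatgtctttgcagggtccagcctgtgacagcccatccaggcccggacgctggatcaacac
Rsad2 (chr6:48788071-48788370, minus strand, first match base at -147): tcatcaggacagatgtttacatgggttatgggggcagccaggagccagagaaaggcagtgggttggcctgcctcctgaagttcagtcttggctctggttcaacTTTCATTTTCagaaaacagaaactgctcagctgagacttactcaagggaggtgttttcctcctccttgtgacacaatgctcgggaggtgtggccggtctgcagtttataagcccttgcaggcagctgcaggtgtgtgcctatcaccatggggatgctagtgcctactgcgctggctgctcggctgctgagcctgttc
Oas1a (chr12:41330216-41330515, plus strand, first match base at -41): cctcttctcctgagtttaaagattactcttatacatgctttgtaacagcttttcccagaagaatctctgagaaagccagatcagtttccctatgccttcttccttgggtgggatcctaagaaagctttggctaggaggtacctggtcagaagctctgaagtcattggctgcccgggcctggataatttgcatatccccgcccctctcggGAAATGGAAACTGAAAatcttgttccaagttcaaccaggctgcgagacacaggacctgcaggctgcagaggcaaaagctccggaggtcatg
Ifitm3 (chr1:205541709-205542008, minus strand, first match base at -44): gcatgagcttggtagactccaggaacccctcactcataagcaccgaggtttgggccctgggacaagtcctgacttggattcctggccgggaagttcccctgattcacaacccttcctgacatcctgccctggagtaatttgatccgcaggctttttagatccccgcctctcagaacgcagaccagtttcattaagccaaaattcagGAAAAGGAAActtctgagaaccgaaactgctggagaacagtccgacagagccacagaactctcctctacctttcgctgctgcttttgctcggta

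Such a match stood in 278 of the 9570 promoters that could be paired with a tested gene (2.9%). Among the interferon-stimulated genes with a promoter it stood in 16 of 25 (64%), and in 9 of the 14 that fell (64.3%). Of the remaining genes that fell it stood in 24 of 648 (3.7%), and of the genes that rose in 23 of 625 (3.68%). The high share within the list comes with how such genes are defined, and a match is a description of the letters, not a measured binding site.

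Irf7, the interferon regulatory factor that sustains the response, measured 6430, 5335, 5834, 5858 and 2981 at 24 h and 2395, 2422, 2195, 2497 and 2968 at 48 h. The lowest 24 h array (replicate 5) and the highest 48 h array were almost level. Irf7 fell 2.06-fold (log2 -1.04, SE 0.15, adjusted p = 1.48e-05). Isg15, a ubiquitin-like protein that is joined to other proteins, measured 6626, 6665, 6231, 5334 and 2827 at 24 h and 2473, 1599, 2836, 2306 and 2257 at 48 h. Its groups overlapped through replicate 5 at 24 h and replicate 3 at 48 h. The change was -1.23 (SE 0.23), or -1.46 without replicate 5. Mx2, a dynamin-like antiviral GTPase, fell by 1.13 (SE 0.22). Rsad2, the antiviral enzyme viperin, fell by 0.96 (SE 0.23), and Oas1a, which makes the activator of RNase L, by 0.65 (SE 0.14). Ifitm3, which blocks viral entry, fell from between 12210 and 17340 to between 8631 and 11800 (log2 -0.58, SE 0.09). Bst2, or tetherin, fell by 0.76 (SE 0.12) and Stat2 by 0.50 (SE 0.08).

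The chemokines of this response, which call T cells, fell too. Cxcl11 measured 3065, 2081, 2434, 2397 and 2601 at 24 h and 1423, 1306, 1236, 1168 and 1309 at 48 h. For this gene replicate 5 sat among its own group (log2 -0.96, SE 0.09, adjusted p = 3e-09). Cxcl9 fell by 0.51 (SE 0.07). Ifit2 was the member that rose (log2 0.40, SE 0.10), whereas Ifit1, of the same family, changed by -0.18 (SE 0.15, adjusted p = 0.493). Of 24 antigen presentation genes, 4 fell and none rose (16.7% changed, near the 13.2% of all genes), and 6 fell without replicate 5. Cd74, the invariant chain of class II molecules, measured between 513.6 and 808.8 at 24 h and between 278.1 and 536.9 at 48 h (log2 -1.004, SE 0.19). The class I genes RT1-CE10 and RT1-S3 fell by 0.81 and 0.76; class I genes are near copies of each other, so which of them changed is uncertain.

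Part of the Kupffer cell and macrophage markers were lower at 48 h. Of 18 tested, 6 fell and none rose (33.3% changed, against 13.2% of all genes), with a median of -0.20. The others were not called, and changes in the list ran from -1.26 to 0.14. Without vehicle 24 h replicate 5, 7 fell. Of 20 such markers on the array, 2 did not pass the filter and 1 of those tested was dim, its lower group mean being below the mean 40th percentile of the arrays. The summed signal of the list, which its brightest members dominate, ran from 39800 to 41300 at 24 h and from 35800 to 39200 at 48 h, with no overlap. The mean log2 signal of the list did overlap, with 24 h replicate 5 at 9.883 and 48 h replicate 4 at 9.905. The other 24 h arrays lay at 10.093 or above on that mean. In a whole-well measurement, fewer cells of a type and less RNA per cell cannot be told apart. Clec4f, a lectin found on Kupffer cells, measured 829.8, 782.2, 1262, 960.1 and 712.4 at 24 h and 272.4, 348.7, 260.5, 490.3 and 584.4 at 48 h. Every 48 h array lay below every 24 h array (log2 -1.26, SE 0.21, adjusted p = 7.49e-05). C1qb and C1qc, chains of the first complement component made by macrophages, fell by 1.18 (SE 0.25) and 0.68 (SE 0.17). Cd68, a macrophage lysosomal glycoprotein, fell from between 1360 and 1781 to between 760.1 and 1099 (log2 -0.84, SE 0.13). The scavenger receptor Cd163 changed by -0.18 (SE 0.23, adjusted p = 0.703). At the same step 18 interferon-stimulated and 4 antigen presentation genes fell. The part of the macrophage markers in those falls was not tested.

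Markers of other liver cells moved in differing directions. Of 16 endothelial markers 3 fell and 1 rose, and their summed signal overlapped between the times (9180 to 10700 at 24 h, 8470 to 10300 at 48 h). Among them Lyve1, a hyaluronan receptor of sinusoidal endothelium, fell by 0.67 (SE 0.18), Fcgr2b by 0.58 (SE 0.14) and Gpr182 by 0.75 (SE 0.22, adjusted p = 0.0708 without 24 h replicate 4). Clec14a, an endothelial lectin, was the one that rose. It measured 561.7, 599.0, 416.0, 570.8 and 787.5 at 24 h and 1972, 2189, 2141, 1545 and 1326 at 48 h (3.13-fold, log2 1.65, SE 0.18, adjusted p = 6.4e-08). Of 9 cholangiocyte markers 2 rose (22.2%), Anxa3 by 0.56 (SE 0.08) and Epcam by 0.28 (SE 0.06), and none fell. The 3 other kept probe sets of Anxa3 gave -0.29 to 1.06, none called. The summed signal of the cholangiocyte list went from between 18700 and 21500 to between 24900 and 26500. Its mean log2 signal overlapped between the times (9.471 to 10.07 at 24 h, 9.923 to 10.054 at 48 h). The median change of the list was 0.279, and 0.028 without vehicle 24 h replicate 5. Stellate cell and fibroblast markers had 2 rises of 14 (14.3%, near the 13.2% of all genes), in Col3a1 and Vim. Col3a1 lost its call without 48 h replicate 5 (adjusted p = 0.0606) and Vim without 24 h replicate 1 (adjusted p = 0.056). Hepatocyte markers had 5 falls and no rise among 18 (27.8% changed). Their summed signal was 790000 to 960000 at 24 h and 681000 to 826000 at 48 h. All 18 hepatocyte markers on the array passed the filter on low signal.

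Cytochrome P450 and flavin monooxygenase enzymes split about evenly, with 8 rises and 9 falls among 32 tested. Genes whose liver level differs between the sexes in the rat did the same, with 5 rises and 7 falls among 22. Cyp2c13, a male-specific P450, fell most. It measured 15070, 18350, 17290, 16730 and 6840 at 24 h and 3377, 2377, 3203, 3393 and 2725 at 48 h, with replicate 5 between the groups (4.70-fold, log2 -2.23, SE 0.25, adjusted p = 1.65e-07). Cyp3a2, a male-predominant steroid 6-beta hydroxylase, fell 2.38-fold, from 9663, 11700, 11030, 11990 and 5020 to 4251, 3473, 4329, 3865 and 3939. In the same arrays Cyp2c11, the main male-specific P450 of rat liver, ranged from 15030 to 18470 at 24 h and from 14980 to 17050 at 48 h. Its change was 0.01 (SE 0.09, adjusted p = 0.97). Cyp2c7, of the same family but not counted here as male-specific, fell by 1.34 (SE 0.18). The Cyp2c enzymes are close in sequence, and their probe sets may share signal.

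Some members of the sex-differential list, which is not limited to male-type genes, rose. Slco1a1, a male-predominant organic anion carrier, rose from between 426.1 and 636.1 to between 684.3 and 1030 (log2 0.75, SE 0.16). Sult2a6, a hydroxysteroid sulfotransferase, rose from 891.2, 590.2, 583.0, 862.2 and 772.1 to 1856, 1815, 2229, 2279 and 1676. All 48 h arrays lay above all 24 h arrays (2.69-fold, log2 1.43, SE 0.20, adjusted p = 7.84e-06). Cyp2a1 was called higher (log2 0.49, SE 0.16) with overlapping groups, and lost the call without any 1 of 7 arrays, that is all but 24 h replicate 5 and 48 h replicates 4 and 5 (adjusted p up to 0.172). Car3, carbonic anhydrase 3, measured 7540, 9796, 9949, 9686 and 2534 at 24 h and 1423, 1048, 1309, 1414 and 1275 at 48 h. It fell 5.52-fold with no overlap (log2 -2.46, SE 0.33).

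Cyp1a2, the aryl hydrocarbon receptor target that clears caffeine and arylamines, fell with little spread within either group. It measured 16720, 16210, 17180, 16750 and 17240 at 24 h and 7442, 7794, 7985, 8398 and 8394 at 48 h. Replicate 5 was level with its group here (2.10-fold lower, log2 -1.07, SE 0.07, adjusted p = 8.61e-12). Of 7 tested targets of that receptor 3 fell, the others being Nqo1 (log2 -0.29, SE 0.05) and Tiparp (log2 -0.33, SE 0.10). Tiparp lost its call without 24 h replicate 2 or 4 or 48 h replicate 1 (adjusted p up to 0.0859), and its other kept probe set gave -0.11, not called. Cyp1a1, the receptor's best known target, changed by 0.09 (SE 0.09, adjusted p = 0.589). Cyp2e1, the ethanol-oxidising P450, fell by 0.34 (SE 0.09). Rises came from the fatty acid omega-hydroxylases Cyp4a1 (log2 0.90, SE 0.15) and Cyp4a3 (log2 0.42, SE 0.11), and from Cyp2j3 (log2 0.63, SE 0.12) and Cyp17a1 (log2 0.65, SE 0.17).

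Conjugating enzymes, which join sulfate, glucuronate, glutathione, acetate or amino acids to drugs and bile acids, had more rises than falls: 11 of 38 tested were higher, 1 was lower and 26 were not called, with a median of 0.11. Without vehicle 24 h replicate 5 the counts were 11 and 3. Besides Sult2a6, rises included Glyat, a glycine acyltransferase (log2 0.71, SE 0.19), Sult1c2 (log2 0.68, SE 0.15), the arylamine acetyltransferase Nat1 (log2 0.63, SE 0.09) and Ugt2b10 (log2 0.59, SE 0.08). Gsta3 rose by 0.47 (SE 0.09). Gstk1, a mitochondrial and peroxisomal glutathione transferase, was the 1 member lower (log2 -0.54, SE 0.07). Gstp3, a pi-class transferase named among the largest falls, measured 2114, 2038, 2478, 2356 and 1013 at 24 h and 790.5, 164.6, 807.8, 346.3 and 542.5 at 48 h. Its groups did not overlap, and its 48 h values differed widely among themselves (log2 -2.07, SE 0.36).

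Carboxylesterases and carbonyl reductases had 7 rises and 4 falls among 29, and 9 and 2 without replicate 5. Close relatives diverged. Ces1d, a carboxylesterase that also mobilises stored triglyceride, measured 4759, 3891, 4106, 5507 and 8525 at 24 h and 12230, 14480, 11690, 12610 and 11090 at 48 h. It rose 2.41-fold (log2 1.27, SE 0.16, adjusted p = 7.56e-07), with replicate 5 the highest 24 h array. Ces1c, a secreted relative, fell from between 22950 and 29650 to between 13110 and 15160 (log2 -0.87, SE 0.08). Aadac, an esterase of the endoplasmic reticulum, rose by 0.98 (SE 0.14), and Hsd17b13, a lipid droplet dehydrogenase, by 0.81 (SE 0.11). The aldo-keto reductases Akr1c1 and Akr1c19 rose by 0.84 (SE 0.14) and 1.18 (SE 0.14), while Akr1b8 fell by 0.64 (SE 0.16).

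Bile acid synthesis genes were higher at 48 h in 6 of 15 cases and lower in 2, with a median of 0.19. In all 53.3% changed, against 13.2% of all genes. Cyp7a1, the rate-limiting enzyme of the classic pathway, measured 1699, 1326, 1341, 1440 and 3410 at 24 h and 3353, 4494, 2867, 3824 and 3004 at 48 h. The first 4 arrays at 24 h lay below all 48 h arrays, and replicate 5 lay among the 48 h arrays. Cyp7a1 rose 2.02-fold (log2 1.01, SE 0.25, adjusted p = 0.00479), and by 1.26 without replicate 5. Cyp27a1 and Cyp39a1, hydroxylases of the alternative routes, rose by 0.29 (SE 0.06) and 0.61 (SE 0.14). Baat, which joins bile acids to glycine and taurine, rose by 0.60 (SE 0.17), a call lost without 24 h replicate 2 or 3 (adjusted p up to 0.0652). Cyp8b1, which sets the share of cholic acid, changed by -0.12 (SE 0.09, adjusted p = 0.457). On 5 bile acid synthesis genes among the 467, replicate 5 at 24 h had a median position of 0.983, level with the 48 h arrays. Without it, 8 genes rose and 2 fell.

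Among transport proteins, 4 uptake carriers of 30 rose and 4 fell (26.7% changed, against 13.2% of all genes). Slco1a4, an organic anion carrier, rose from between 2117 and 2419 to between 2907 and 3956 (log2 0.59, SE 0.14). The amino acid carrier Slc38a3 fell by 0.41 (SE 0.06). Slc10a1, the main bile salt importer, changed by 0.26 (SE 0.11, adjusted p = 0.153). Of 14 export pumps 3 rose and none fell (21.4% changed). Abcb11, the bile salt export pump, rose by a small amount, from 17520, 17030, 17440, 16920 and 19480 to 19430, 20420, 19770, 21060 and 20150 (log2 0.19, SE 0.04, adjusted p = 0.00162). Replicate 5 at 24 h lay within the range of the 48 h arrays. Abcc2, a pump for conjugates, changed by -0.08 (SE 0.05).

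Part of the genes for fatty acid oxidation and synthesis were higher at 48 h, and so was Cd36. Cd36, the fatty acid translocase, had the largest rise of all named genes. Its signals were 1588, 865.4, 1072, 1039 and 1940 at 24 h and 5265, 4973, 4871, 5329 and 5063 at 48 h. The 48 h arrays lay close together, well above every 24 h array (4.10-fold, log2 2.04, SE 0.18, adjusted p = 2.41e-09). Of 34 genes of fatty acid oxidation and PPAR-alpha targets, 11 rose and 1 fell, with a median of 0.13; without replicate 5, 15 rose and 1 fell. Vnn1, a pantetheinase and PPAR-alpha target, rose from 2801, 2164, 2857, 2793 and 4381 to 6647, 6694, 5943, 5897 and 5820 (log2 1.08, SE 0.15). Ehhadh, the peroxisomal bifunctional enzyme, rose by 0.77 (SE 0.18) with overlapping groups, and Bbox1, the last enzyme of carnitine synthesis, rose by 0.77 (SE 0.14) without overlap. Cpt1a, which controls fatty acid entry into mitochondria, changed by 0.21 (SE 0.14, adjusted p = 0.396), and Cpt2 was the 1 member lower (log2 -0.26, SE 0.08), a call lost without 24 h replicate 1 or 48 h replicate 2 or 3 (adjusted p up to 0.0788).

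Of 23 fatty acid synthesis genes 11 were higher and 1 lower, with a median of 0.23. Without replicate 5, 9 were higher and 1 lower; 6 were higher without 24 h replicate 2, and 7 without 24 h replicate 3 or without 48 h replicate 1, 2 or 4. Scd2, a stearoyl-CoA desaturase, measured 792.3, 728.8, 768.4, 742.4 and 803.3 at 24 h and 1966, 2271, 1732, 1996 and 1926 at 48 h. Both groups were tight and far apart, and replicate 5 lay with its own group (2.57-fold, log2 1.36, SE 0.11, adjusted p = 2.02e-10). Scd, its liver relative and a far brighter probe set, went from between 62740 and 73710 to between 54480 and 62850 (log2 -0.23, SE 0.06, adjusted p = 0.00834). The 2 other kept probe sets of Scd2 gave 0.14 and 0.69, neither called, and the mean of its probe sets gave 0.73. The desaturases are close in sequence, so signal may be shared. Fasn, fatty acid synthase, rose from 4154, 2858, 3038, 2930 and 4793 to 5671, 6745, 5045, 5046 and 4405 (log2 0.62, SE 0.14), and its groups overlapped. Elovl6 and Pnpla3 rose by 0.62 (SE 0.16) and 0.74 (SE 0.17), also with overlap. Of 24 cholesterol synthesis and uptake genes 8 rose and 1 fell. The largest rise there was in Dhcr7, the last enzyme (log2 0.47, SE 0.14, a call lost without 48 h replicate 2 or 24 h replicate 2, 3 or 4, with adjusted p up to 0.0715), and Tm7sf2, a sterol reductase, fell by 0.70 (SE 0.07).

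Of 21 lipoprotein genes 8 fell, 1 rose and 12 were not called. Apoa2, the second protein of HDL, measured 43760, 42760, 46540, 40980 and 35350 at 24 h and 21350, 21620, 24030, 23330 and 20680 at 48 h. The fall of 1.88-fold was clear of the replicate spread (log2 -0.91, SE 0.07, adjusted p = 8.26e-11). Hepatic lipase (Lipc) fell by 0.88 (SE 0.08), the HDL-bound esterase paraoxonase (Pon1) by 0.87 (SE 0.09) and Apom by 0.64 (SE 0.06). The other kept probe set of Pon1 gave -0.10, not called, and the mean of both -0.48. Apob changed by -0.03 (SE 0.08, adjusted p = 0.889) on its brightest probe set, and its other kept probe set gave -0.44, not called. The gene that rose was Apoa5 (log2 0.21, SE 0.05).

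Amino acid catabolism had 8 rises and 8 falls among 54 genes (29.6% changed, against 13.2% of all genes). The alanine aminotransferases differed in sign: Gpt2, the mitochondrial form, rose from between 1551 and 2573 to between 3307 and 3887 (log2 0.80, SE 0.11), and Gpt, the cytosolic form, fell from between 18860 and 22580 to between 13590 and 17140 (log2 -0.43, SE 0.08). The other kept probe set of Gpt2 gave 0.09, not called, and the mean of both 0.44. Hal, the histidine ammonia-lyase, fell by 0.56 (SE 0.12), and Gldc, of the glycine cleavage system, rose by 0.51 (SE 0.10); the mean of Gldc's probe sets gave 0.35 (adjusted p = 0.0515). In the urea cycle, Otc measured 1801, 1644, 1679, 2066 and 2163 at 24 h and 3157, 3257, 2908, 3502 and 3036 at 48 h, without overlap. Its change was 0.77 (SE 0.25, adjusted p = 0.0386). That SE is taken from the spread within all 6 groups, and the call was lost on leaving out any 1 of 8 vehicle arrays, while a fit to the 10 vehicle arrays alone gave an adjusted p of 9.07e-05. Cps1, the first enzyme of the cycle, changed by -0.06 (SE 0.09, adjusted p = 0.749). Phgdh and Psat1, enzymes of serine synthesis, rose by 0.64 (SE 0.11) and 0.66 (SE 0.06). Both also belong to the list for the integrated stress response, where 5 of 29 genes rose and 5 fell, among them Atf3 (log2 -0.55).

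Large rises outside these groups were found in genes that are not typical of the liver. Tsx, a testis-specific X-linked gene, measured 609.1, 451.6, 471.8, 401.6 and 439.3 at 24 h and 2038, 1892, 1428, 1622 and 1246 at 48 h (3.45-fold, log2 1.78, SE 0.18, adjusted p = 2.03e-08). Acta1, the skeletal muscle actin, rose from between 1501 and 1873 to between 3484 and 5770 (log2 1.27, SE 0.13). Every 48 h array lay above every 24 h array for both. Cryab, a small heat shock protein, rose from 5554, 5221, 5401, 5265 and 4490 to 9505, 9104, 9254, 9194 and 9778, with little spread within either group (log2 0.86, SE 0.06). Ldhb, the heart-type lactate dehydrogenase subunit, rose by 1.11 (SE 0.08, adjusted p = 3.67e-11), while Ldha, the subunit typical of liver, changed by -0.10 (SE 0.08, adjusted p = 0.473). Lmcd1, a LIM-domain protein, rose by 1.12 (SE 0.12) and Olfml1, a secreted olfactomedin-like protein, by 1.26 (SE 0.18).

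Proteases, their inhibitors and matrix genes changed in part. Of 32 extracellular matrix and turnover genes, 6 rose and 3 fell (28.1% changed, against 13.2% of all genes). Serpine2, an inhibitor of thrombin and plasminogen activators, measured 617.0, 342.3, 540.9, 345.2 and 514.3 at 24 h and 1364, 1203, 959.4, 1304 and 1445 at 48 h (2.71-fold, log2 1.44, SE 0.16, adjusted p = 6.84e-08). Plat, the tissue plasminogen activator, rose by 0.89 (SE 0.11). Timp1, an inhibitor of matrix metalloproteinases, fell by 0.75 (SE 0.13). Fibronectin (Fn1) changed by -0.07 (SE 0.06) and Col1a1 by -0.10 (SE 0.20), neither called. Among chemokines, Cxcl16 rose by 0.97 (SE 0.11) and Cxcl1, which attracts neutrophils, fell by 0.76 (SE 0.13).

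The changes in genes that every cell uses were small. In the respiratory chain 10 of 46 nuclear genes fell and none rose (21.7% changed, against 13.2% of all genes), with a median of -0.08. With arrays centred on their medians 6 fell. Ndufb10, a subunit of complex I, fell from between 18200 and 19650 to between 13900 and 15150 (log2 -0.38, SE 0.04). Cytosolic ribosomal proteins had 5 falls among 41 (12.2%, near the 13.2% of all genes). Lysosomal genes fell in 12 of 44 cases and rose in 1 (29.5% changed). Among the falls were the cathepsins Ctss (log2 -0.71, SE 0.12) and Ctsb (log2 -0.38, SE 0.07). Ctss is also on the macrophage list. Proteasome genes had 2 rises and 2 falls among 30 (13.3%, near the 13.2% of all genes). NRF2 targets had 7 rises and 7 falls among 30, with Srxn1 lower (log2 -0.40, SE 0.06) and Gclc higher (log2 0.29, SE 0.07). Only 1 of 36 DNA replication and mitosis genes was called, Mcm6 (log2 -1.44, SE 0.48), which was dim at 48 h; without vehicle 48 h replicate 4, at 18.46, its change was -0.76, and its call was lost without any 1 of 6 arrays (adjusted p up to 0.185).

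Of 25 hepatocyte transcription factors, 3 fell and none rose (a share near the 13.2% of all genes). Hnf4a, which sustains the hepatocyte programme, fell from between 10460 and 12500 to between 8016 and 9599 (log2 -0.40, SE 0.05, adjusted p = 4.56e-06). The 2 other kept probe sets of Hnf4a gave 0.03 and 0.27 and were not called, so this fall rests on 1 probe set. Cebpb and Nfil3 fell by 0.27 (SE 0.04) and 0.51 (SE 0.12), and Cebpa changed by -0.07 (SE 0.11). Clock genes had 1 rise and 3 falls among 20 (20.0% changed, against 13.2% of all genes). Nr1d2 rose by 0.38 (SE 0.08), and Per2, Cry1 and Nfil3 fell. Cry1 lost its call without 24 h replicate 1 or 3 or 48 h replicate 1 or 5 (adjusted p up to 0.0876). Dbp changed by 0.21 (SE 0.32) and Nr1d1 by -0.02 (SE 0.19). Igf1, the growth hormone target, changed by -0.03 (SE 0.05, adjusted p = 0.739) on its brightest probe set, while its 2 others were called higher, by 0.31 and 0.43. Tat, Pck1, Afp and Krt18 changed by 0.10, -0.09, 0.13 and -0.20, none of them called.

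**Figure D4:**
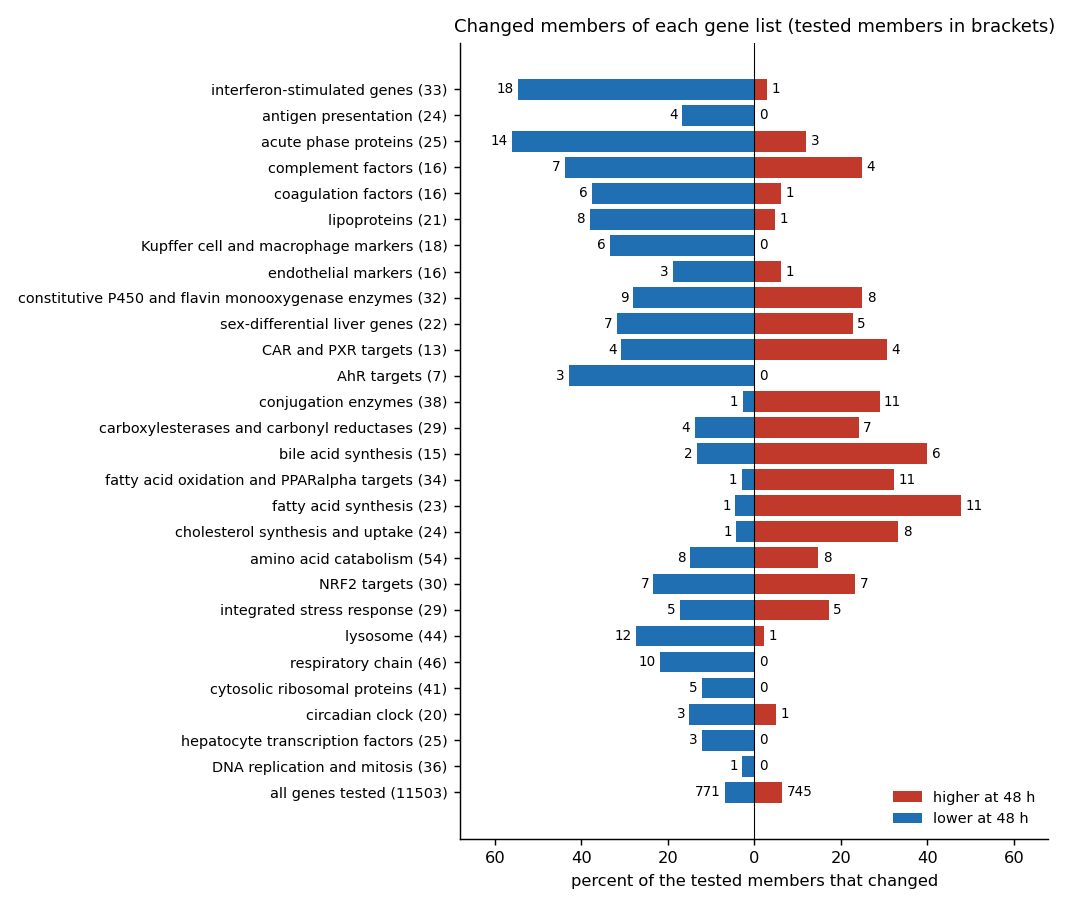
Share of the tested members of each gene list that were lower (blue, to the left) or higher (red, to the right) at 48 h, in percent of the members tested, whose number is in brackets. Counts stand at the bars; 18 of 33 interferon-stimulated genes and 14 of 25 acute phase proteins were lower, 11 of 23 fatty acid synthesis genes were higher, and the lowest bar gives all 11503 genes.

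The same step could be read in the treated cultures, which share no array with the vehicle cultures. At 0.8 µM 713 genes changed between 24 and 48 h (6.2%), and at 20 µM 1198 (10.4%). Of the 745 genes higher at 48 h in vehicle, 684 had the same sign at 0.8 µM; 258 were called there in the same direction (34.6% of the vehicle genes, and 66.2% of the 390 called higher at 0.8 µM, which were 3.39% of all genes) and none in the opposite one. Of the 771 lower genes, 719 had the same sign, 219 were called in the same direction (28.4%, and 67.8% of 323, which were 2.81% of all genes), and none in the opposite one. At 20 µM, 199 of the higher genes were called in the same direction (26.7%, and 34.2% of 582, or 5.06% of all genes) and 28 in the opposite one. Of the lower genes, 214 were called in the same direction (27.8%, and 34.7% of 616, or 5.36% of all genes) and 18 in the opposite one. The difference between the time changes, which uses the vehicle arrays on one side, was called for 8 genes at 0.8 µM (0.0695%) and for 484 at 20 µM (4.21%), of which 205 were positive (1.78%) and 279 negative (2.43%). Without vehicle 24 h replicate 5 those counts were 13 and 647.

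Some of the largest falls were present at both doses. Serpina6 changed by -2.47 (SE 0.25) at 0.8 µM and -2.18 (SE 0.25) at 20 µM, Cyp2c13 by -2.20 and -2.42, and Car3 by -2.29 and -2.46. The difference from vehicle was called for none of these 3. Serpina3c and Serpina3l fell less at 20 µM, with differences of 0.95 and 0.87, both called. Interferon-stimulated genes had 13 falls and no rise at 0.8 µM and 13 falls and 2 rises at 20 µM. Kupffer cell markers had 9 falls at 0.8 µM, and 10 falls and 1 rise at 20 µM, where the one that rose was Cd68 (log2 0.50, SE 0.13, against -0.84 in vehicle, adjusted p of the difference = 9.06e-06).

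Several rises in lipid and drug metabolism genes were absent or reversed at 20 µM. Genes of fatty acid oxidation and PPAR-alpha targets had 11 rises and 1 fall at 0.8 µM, as in vehicle, but no rise and 9 falls at 20 µM, and the difference was called for 11 of the 34. Other lists with rises in vehicle had few or none called at 0.8 µM, though counts of calls do not test a difference. None of the genes with a called difference at 0.8 µM, named below, is a fatty acid or cholesterol synthesis gene. Fatty acid synthesis had 1 rise and 1 fall at 0.8 µM, and 3 rises and 1 fall at 20 µM. The difference from vehicle at 20 µM was called for 1 of its 23 genes. Cholesterol synthesis and uptake had no rise and 3 falls at 0.8 µM, and 1 rise and 4 falls at 20 µM. There the difference was called for 6 of 24 genes. Ces1d changed by 0.69 (SE 0.16) at 0.8 µM and by -0.99 (SE 0.16) at 20 µM, against 1.27 in vehicle. Cyp4a1 changed by 1.00 and -0.52 (SE 0.15 each), and Akr1c1 by 0.57 and -0.85 (SE 0.14 each). For these 3 genes the difference at 20 µM was called (adjusted p = 3.26e-08, 6.63e-05 and 2.2e-06). Vnn1 changed by 0.04 and Sult2a6 by -0.23 at 20 µM, both with a called difference. Hamp, which fell by 1.49 in vehicle and by 1.49 at 0.8 µM, changed by -0.08 (SE 0.25) at 20 µM (adjusted p of the difference = 0.0145). Acta1 rose at both doses, by 1.59 and 1.97 (SE 0.13 each), and Scd2 by 1.55 and 1.87 (SE 0.11 each).

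Some time changes were seen at 20 µM with little or none in vehicle. Cyp2e1 fell by 2.12 (SE 0.09) there and by 0.34 in vehicle (adjusted p of the difference = 9.93e-11), and Cyp2c11 fell by 1.45 (SE 0.09) against a change of 0.01. Slc10a1 fell by 0.93 (SE 0.11). The 8 genes with a called difference at 0.8 µM were C9, Cab39, Cflar, Cryab, Cyp2c11, Cyp3a18, Omd and Sult1e1; those outside the named lists were chosen after their values were seen. All 8 differences were negative. Cyp2c11 fell by 0.62 (SE 0.09) at 0.8 µM, and Sult1e1, the estrogen sulfotransferase, fell by 0.98 (SE 0.16) against a change of 0.22 in vehicle. Cflar, an inhibitor of caspase 8 activation, rose by 1.06 (SE 0.17) in vehicle and changed by -0.34 (SE 0.17) at 0.8 µM; its other kept probe set gave -0.06 in vehicle, not called. Omd, the matrix proteoglycan osteomodulin, rose by 0.94 (SE 0.12) in vehicle and changed by -0.22 (SE 0.12).

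**Figure D5:**
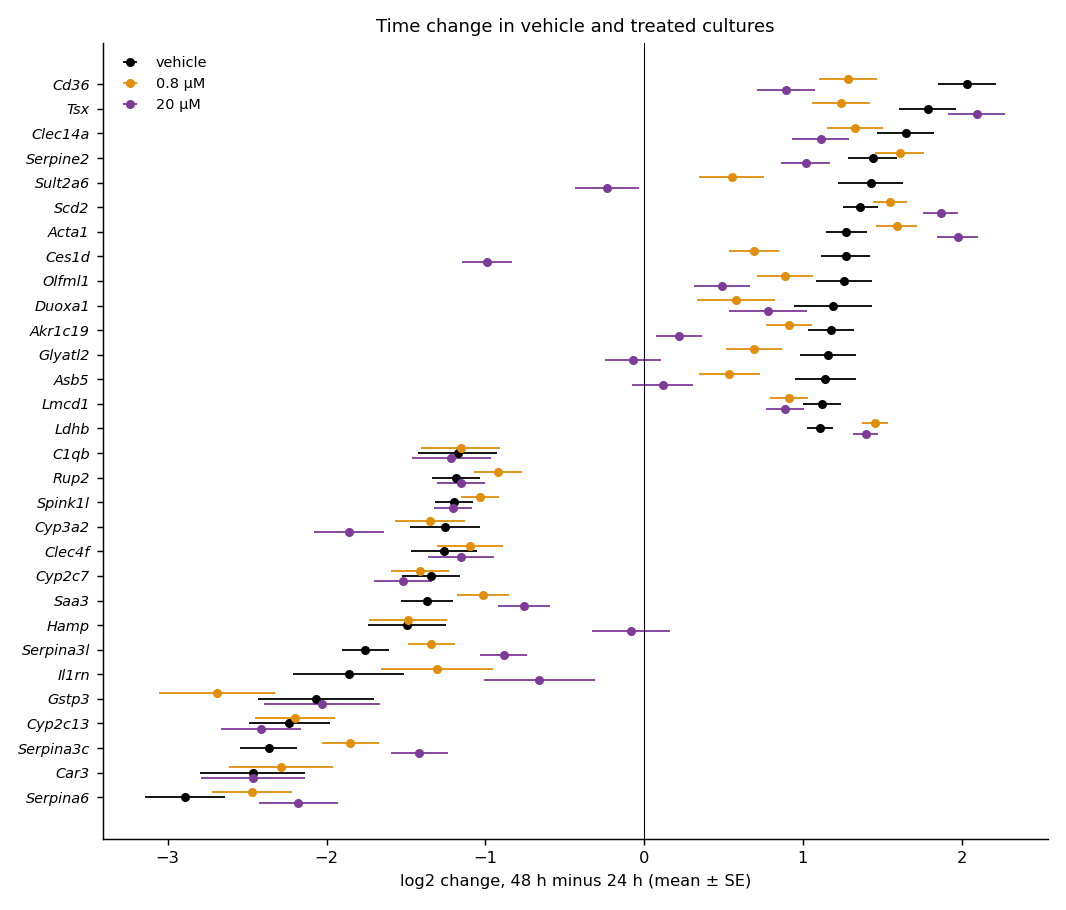
Time change (horizontal axis, log2 of 48 h minus 24 h) of the 15 largest rises and 15 largest falls of the vehicle cultures, in vehicle (black), 0.8 µM (orange) and 20 µM (purple). Points are means of 5 arrays against 5 and bars their SE; all 30 keep their sign at 0.8 µM, while Ces1d, Sult2a6 and Glyatl2 lie below 0 at 20 µM.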

How the data were processed

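Total RNA of each well was labelled with biotin and hybridised to 1 array. The deposited intensity values are linear probe set signals from MAS5, per the submitters' processing notes (version and annotation not given in the sources used here); on each array their mean between the 2nd and 98th percentiles was 1500. Scanner files were not used here.

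Groups came from the labels. Signals below 16 were raised to 16 and log2 taken. Probe sets above their array's 40th percentile on at least 5 of the 30 arrays were kept (21226), and of those naming 1 gene, through GEO's platform annotation, the one with the highest mean stood for the gene (11503 genes). limma 3.58.1 in R 4.3.3 fitted the 6 group means to all 30 arrays (24 residual degrees of freedom) with eBayes and an intensity trend; the script was tested on simulated data. The number of arrays limits the precision.

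The members, the 60 gene lists and the naming rule were chosen with earlier results of these data known. Named were the 15 largest rises and falls without overlap and not dim, up to 4 changed members of each list, members needed for contrast, and a panel of 34 genes, of which 32 were tested (Actb and Mx1 were not). Alternatives changed the floor, filter, scaling, spread model, arrays fitted, probe set summary and threshold, and left out arrays.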

Additional observations from a re-analysis of the deposited data

Results flagged for a closer look

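Of 322 groups of 5 arrays examined for the named genes, 35 held an array whose gap was above the critical value of 0.71 (10.9%); chance gives about 1 in 20. Vehicle 24 h replicate 5 was that array in 19 of them and 48 h replicate 2 in 8.

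Vehicle 24 h replicate 5 was the lowest 24 h array for Serpina6 (gap 0.862 of the range), Il1rn (0.862), Cyp2c7 (0.856), Per2 (0.804), Cyp2c13 (0.8), Car3 (0.797), Gstp3 (0.781), Irf7 (0.757), Cyp3a2 (0.752), Sult1e1 (0.751), Atf3 (0.747) and Isg15 (0.74). It was the highest 24 h array for Cyp27a1 (0.852), Bbox1 (0.821), Akr1c1 (0.796), Akr1c19 (0.796), Abcb11 (0.754), Cyp7a1 (0.737) and Baat (0.736). Apart from Sult1e1, whose time change was not called, these values lay on the side of the 48 h arrays.

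Vehicle 48 h replicate 2 was the lowest 48 h array for Il1rn (0.805), Pon1 (0.803), Serpina3c (0.793), Cps1 (0.793), Bst2 (0.754), Rup2 (0.751) and Akr1b8 (0.712), and the highest for Serpina7 (0.748). Other arrays apart from their group were 48 h replicate 5 for Sult1e1 (0.871) and Apob (0.761), 48 h replicate 4 for Cyp8b1 (0.823) and Mcm6 (0.791), 48 h replicate 1 for Apom (0.724), 24 h replicate 2 for Glyat (0.792) and Dbp (0.768), and 24 h replicate 1 for Slc38a3 (0.766).

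Time changes that differed at 20 µM from vehicle are given as the log2 change at 20 µM minus that in vehicle, each called in limma with Benjamini-Hochberg adjustment. Among drug metabolism and bile acid genes that rose in vehicle the difference was -2.26 for Ces1d, -1.69 for Akr1c1, -1.66 for Sult2a6, -1.34 for Cyp3a18, -1.27 for Cyp7a1, -1.23 for Glyatl2, -1.18 for Baat, -1.05 for Glyat, -0.997 for Cyp2j3, -0.96 for Akr1c19, -0.94 for Aadac, -0.76 for Cyp39a1 and -0.52 for Nat1. Among lipid genes it was -1.42 for Cyp4a1, -1.14 for Cd36, -1.08 for Ehhadh, -1.05 for Vnn1, -0.95 for Elovl6, -0.75 for Bbox1 and -0.69 for Cyp4a3. Other genes that rose in vehicle were Otc (-1.95), Omd (-1.51), Slco1a1 (-1.35), Slco1a4 (-0.94), Gpt2 (-0.92), Cryab (-0.76), Gldc (-0.75), C5 (-0.66), Mbl2 (-0.46) and Cab39 (-0.44), and Acta1 rose further (0.70).

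Genes that fell in vehicle and fell less or rose at 20 µM were Hamp (1.41), Cd68 (1.34), Serpina3c (0.95), Serpina3l (0.87), RT1-CE10 (0.65), Gstk1 (0.61), Cyp1a2 (0.54), Stat2 (0.42), Ndufb10 (0.30) and Srxn1 (0.29). Genes that fell in vehicle and fell further were Cyp2e1 (-1.78), Cxcl1 (-1.01), C9 (-0.47) and Fetub (-0.25). Genes with no call in vehicle were Sult1e1 (-2.01), Cyp2c11 (-1.46), Slc10a1 (-1.18) and Igf1 (-0.27).

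At 0.8 µM the differences were -1.39 for Cflar, -1.19 for Sult1e1, -1.16 for Omd, -0.63 for Cyp2c11, -0.62 for C9, -0.53 for Cyp3a18, -0.44 for Cryab and -0.41 for Cab39.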

How the results depend on the processing

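The count of 1516 changed genes stayed between 1078 and 1711 under the alternatives that kept the threshold, except that testing every kept probe set, named or not, gave 1895. The lowest count came from fitting the 10 vehicle arrays alone; such a fit gives no difference between doses. An adjusted p under 0.01 left 850 genes (448 higher, 402 lower), and a minimum of 1.5-fold left 242 (123 and 119). Leaving out each vehicle array in turn gave 1227 to 1685, the highest without 24 h replicate 5; leaving out 24 h replicates 2 and 5 gave 1361, and leaving out array run 5 in all groups 1521. The last 2 settings and the kept probe sets were chosen after seeing the data. Genes whose time change differed at 0.8 µM numbered 5 without the trend, 13 with array run as a block, and 6 to 13 on leaving out an array (13 without 24 h replicate 5 or 48 h replicate 3), against 8. The cause was not tested. At 20 µM leaving out an array gave 371 to 647. Of 134 changed genes named in the text, 119 stayed called on leaving out each vehicle array, and 114 under all 26 alternatives that kept the threshold. Igf1 turned from -0.03 to 0.24 and Fgb from -0.29 to 0.054 with the mean of a gene's probe sets, since their other probe sets differ in sign. The labels give no replicate numbers; array numbers form 5 runs through the groups, and the deviations of 24 h and 48 h arrays of the same run of array numbers correlated at -0.0322 to 0.0602, and array run as a block gave 1643 genes. Signals near the floor limit dim genes: 38 changed genes had a group mean below the dim limit of 8.09.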
